A study of Mus musculus with 9 samples.

Results

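The 6 nuclear genes of mitochondrial energy metabolism, Cox5a, Sdhd, Ndufa9, Atp5pb, Dlat and Tbrg4, were measured in poly(A) RNA from c-Kit+ bone marrow cells of mice. They were taken by gene symbol, and all 6 were found among the 99 genes of the table analysed here and passed its expression minimum, as did 62 genes in all. The 9 libraries formed 3 groups of 3, labelled NPC, NC and WT in title and genotype. According to the series, these cells, which include stem cells and early progenitors of the blood, came from mice with chronic myelomonocytic leukaemia (CMML) that also lacked the mechanosensitive channel gene Piezo1 in a conditional knockout, from CMML mice and from control mice. The labels do not spell out the codes. NPC is read here as CMML with the knockout, NC as CMML and WT as control, from the letters of the codes alone, and the text keeps the codes. The sources used here give no strain, age, sex, CMML-driving allele, Cre driver or inducing agent. The labels do not tie each library to its own animal, so the p-values reflect the spread among libraries, part or all of which may be technical.

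Mitochondria burn pyruvate in steps that these genes serve. The pyruvate dehydrogenase complex turns pyruvate into acetyl-CoA, the citrate cycle strips electrons from it, complexes I and II feed the electrons into the respiratory chain, complex IV passes them to oxygen, and the ATP synthase uses the resulting proton gradient. Blood stem cells are known for a reliance on glycolysis, whereas proliferating and differentiating progenitors draw more on respiration. Dlat encodes the E2 core of pyruvate dehydrogenase, dihydrolipoamide acetyltransferase. Sdhd encodes a membrane anchor of complex II, succinate dehydrogenase, the one enzyme shared by the citrate cycle and the chain. Ndufa9 encodes an accessory subunit of complex I, Cox5a a nuclear-encoded subunit of complex IV, and Atp5pb the b subunit in the peripheral stalk of the ATP synthase. Tbrg4, also known as Fastkd4, encodes a FASTK family protein that regulates the stability of mitochondrial RNAs.

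On GRCm39, as the table places them, Sdhd (ENSMUSG00000000171) lies at chr9:50507657-50515112 and Dlat (ENSMUSG00000000168) at chr9:50545933-50571080, both on the minus strand and 30820 bases apart. Cox5a (ENSMUSG00000000088) lies at chr9:57428557-57439709 on the plus strand. Ndufa9 (ENSMUSG00000000399) lies at chr6:126798684-126826088, Tbrg4 (ENSMUSG00000000384) at chr11:6565598-6576067 and Atp5pb (ENSMUSG00000000563) at chr3:105850014-105867415, all on the minus strand. The table lists 1 transcript for Sdhd, 3 each for Cox5a and Ndufa9, 6 each for Atp5pb and Dlat, and 12 for Tbrg4. The span of Atp5pb overlaps that of Wdr77 (plus strand, chr3:105866685-105877076), which encodes a partner of the arginine methyltransferase Prmt5, by 731 bases. In the GRCm38 annotation the exons of both genes share 337 bases, which is 8.21% of the exonic length of Atp5pb and 6.96% of that of Wdr77. Libraries marked the strand, but the sources used here do not give the strand setting of the counting, so fragments from the overlap may stand under either gene.

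The promoter windows of the genes, from 250 bases before to 50 bases after the start site, were taken from RefSeq on GRCm38.p6, a different build from that of the table, and all 6 genes matched. The 4 windows are shown, the head-to-head pair's window, those of Sdhd and Tbrg4, whose profiles across libraries were the most alike among the 6 genes, and that of Dlat, which was lowest against WT in NPC. Capitals mark matches to any of 5 motifs on either strand. The window of Atp5pb is chr3:105959214-105959513 (minus strand), that of Sdhd chr9:50603800-50604099 (minus strand), that of Tbrg4 chr11:6626018-6626317 (minus strand) and that of Dlat chr9:50659731-50660030 (minus strand).
Atp5pb: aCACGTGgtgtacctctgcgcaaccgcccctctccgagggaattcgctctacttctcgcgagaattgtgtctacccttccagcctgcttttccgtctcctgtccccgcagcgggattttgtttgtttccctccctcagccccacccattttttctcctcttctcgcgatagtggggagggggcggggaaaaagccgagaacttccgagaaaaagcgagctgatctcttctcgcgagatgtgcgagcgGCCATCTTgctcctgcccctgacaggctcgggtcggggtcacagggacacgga
Sdhd: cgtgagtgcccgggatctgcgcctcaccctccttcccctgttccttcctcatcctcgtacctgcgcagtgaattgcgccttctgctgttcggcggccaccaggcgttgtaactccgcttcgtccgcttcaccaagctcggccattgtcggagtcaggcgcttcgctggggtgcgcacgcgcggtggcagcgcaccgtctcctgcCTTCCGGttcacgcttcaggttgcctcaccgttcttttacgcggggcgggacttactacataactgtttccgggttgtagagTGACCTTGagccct
Tbrg4: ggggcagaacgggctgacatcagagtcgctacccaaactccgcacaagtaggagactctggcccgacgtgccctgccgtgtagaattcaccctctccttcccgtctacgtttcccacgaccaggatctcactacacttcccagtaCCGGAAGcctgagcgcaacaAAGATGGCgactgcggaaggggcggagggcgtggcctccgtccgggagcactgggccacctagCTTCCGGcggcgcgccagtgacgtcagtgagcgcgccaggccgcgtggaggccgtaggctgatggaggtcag
Dlat: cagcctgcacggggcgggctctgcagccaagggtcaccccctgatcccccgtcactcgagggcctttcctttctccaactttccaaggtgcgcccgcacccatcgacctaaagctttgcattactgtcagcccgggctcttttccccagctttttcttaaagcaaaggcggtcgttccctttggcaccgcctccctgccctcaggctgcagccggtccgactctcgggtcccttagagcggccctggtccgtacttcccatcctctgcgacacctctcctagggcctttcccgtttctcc

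The motifs searched were the NRF1 core GCATGCGC, the GABP core CCGGAAG, the YY1 core AAGATGGC, the ERR element CAAGGTCA and the E-box CACGTG, and none of the matches in the 6 windows overlapped another. The GABP core stood in Sdhd, at position -46 from the start, and in Tbrg4, at -105 and -22, and 8.86% of the 32851 RefSeq windows of the same length hold it. The YY1 core stood in Tbrg4, Atp5pb and Ndufa9 (2.75% of windows), the ERR element in Sdhd (1.56%) and the E-box in Atp5pb (7.15%). The NRF1 core (2.71%) was found in none of the 6 windows, and the windows of Dlat and Cox5a held no match. Only these exact letters and their reverse complements were searched, so variant sites were not counted. The Sdhd window holds gcacgcgc, the NRF1 core with C in place of T. The start sites of Atp5pb and Wdr77 in RefSeq lie 235 bases apart, pointing away from each other, so 266 of the 300 bases of the Atp5pb window are also in the Wdr77 window. The GC content of the 6 windows ran from 53.3% in Ndufa9 to 65.0% in Cox5a, against a median of 52.7% over all windows (quartiles 45.7% and 61.7%). A match describes the letters and does not show that a factor binds.

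Library depth was worked out from count over FPKM, a level scaled to transcript length and to the mapped fragments of the library. It ran from 76613077 to 88424053 counts per library, and the 99 genes held 0.504% to 0.531% of it. For the 6 genes each library held at least 5197 and at most 19511 counts, where about 4 counts stand for 1 fragment. Of the 55 cell type markers listed, 3 were in the table. Itgb2l, an integrin gene of neutrophils, averaged 47.8 ± 1.11 FPKM in NPC, 45.3 ± 2.33 in NC and 35.1 ± 0.655 in WT (SD, n = 3 each), and Lck, a T-cell kinase gene, 5.24 ± 0.658, 4.72 ± 0.272 and 3.30 ± 0.292 FPKM in the same order. Alox12, a platelet lipoxygenase gene below the expression minimum, averaged 0.262 FPKM in NPC, 0.247 in NC and 0.443 in WT. Markers of erythroid, B, monocytic, mast and stem cells, Kit and Piezo1 were not analysed here, so neither the c-Kit+ sort nor the knockout could be checked. The share of other cell types in the results below was not tested. In bulk RNA, fewer cells of a type and less RNA per cell cannot be told apart.

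The FPKM levels, which are per length and so can be set beside each other, spanned a wide range. Sdhd was the highest of the 6 at a mean of 104 FPKM over the 9 libraries, the 3rd highest of the 99 genes, and Dlat the lowest at 14.9 FPKM, the 27th. Atp5pb (53.8 FPKM), Cox5a (46.7), Ndufa9 (35.4) and Tbrg4 (32.5) lay between them. The order held in each of the 9 libraries. The narrowest steps were Ndufa9 over Tbrg4, with a ratio of 1.03 to 1.21 within a library, and Atp5pb over Cox5a, with 1.05 to 1.30. The FPKM ranges of Ndufa9 and Tbrg4 over all libraries overlapped, as did those of Atp5pb and Cox5a. Together the 6 genes made up 21.2% to 22.1% of the summed FPKM of the table in NPC, 21.3% to 21.6% in NC and 24.2% to 24.6% in WT. That share also falls when other genes of the table rise.

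**Figure D1:**
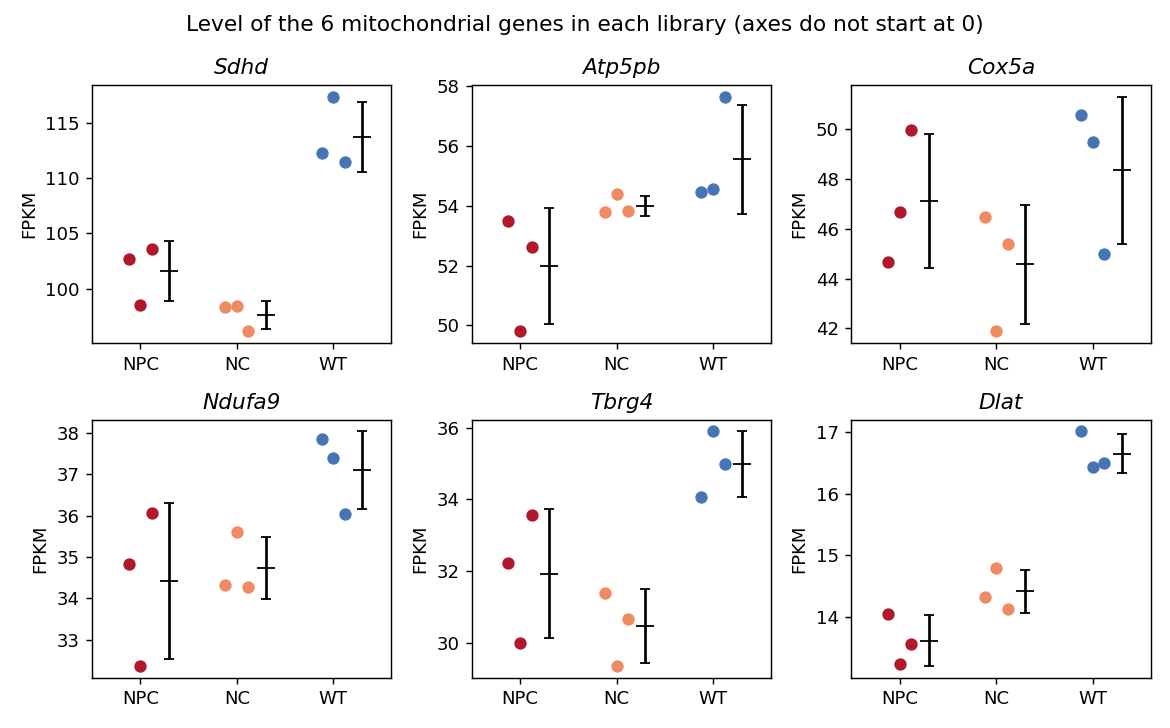
Level in FPKM (y axis, a separate range for each gene) of the 6 genes in each library of NPC, NC and WT (x axis). Points are libraries and the bar beside them is the mean ± SD (n = 3). The NC and NPC points of Sdhd, Dlat, Tbrg4 and, by a narrow margin in NC, Atp5pb lie below all WT points, while for Cox5a the 3 groups overlap.

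NC was compared with WT, which asks, on the reading above, how c-Kit+ cells of CMML mice differ from those of control mice. Sdhd, Dlat, Tbrg4 and Cox5a were lower in NC, at 0.858 to 0.922 times the WT level, and no gene of the 6 was called higher. Sdhd had 98.3, 98.4 and 96.1 FPKM in NC libraries, against 112, 117 and 111 FPKM in WT libraries. Its NC libraries all lay below its WT libraries, and its log2 fold change was -0.22 ± 0.04 (SE; 95% interval -0.29 to -0.15; edgeR adjusted p = 4.17e-06), or 0.858 times the WT level. Dlat had 14.3, 14.8 and 14.1 FPKM in NC, against 17.0, 16.4 and 16.5 FPKM in WT. The groups were apart here too, with a log2 fold change of -0.21 ± 0.04 (SE; -0.29 to -0.12; edgeR adjusted p = 6.71e-05). Tbrg4 had 31.4, 29.4 and 30.7 FPKM in NC, against 34.1, 35.9 and 35.0 FPKM in WT, again with no overlap and a log2 fold change of -0.20 ± 0.04 (SE; -0.28 to -0.12; edgeR adjusted p = 8.61e-05).

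Cox5a, Ndufa9 and Atp5pb had estimates nearer to 0. Cox5a had 46.4, 41.9 and 45.4 FPKM in NC, against 50.5, 49.5 and 45.0 FPKM in WT. The lowest WT library lay among the NC libraries, and the log2 fold change of -0.12 ± 0.05 (SE; -0.21 to -0.02) passed narrowly at an edgeR adjusted p of 0.0339. Leaving out NC replicate 2 (-0.07) or WT replicate 1 (-0.08) ended the call, as did leaving out WT replicate 2 (-0.10) or NPC replicate 2 (-0.12), with edgeR adjusted p from 0.0542 to 0.198, so single libraries decide this call. Ndufa9 had 34.3, 35.6 and 34.3 FPKM in NC, against 37.9, 37.4 and 36.0 FPKM in WT. Its groups did not overlap, yet its log2 fold change of -0.10 ± 0.04 (SE; -0.18 to -0.01) did not pass (edgeR adjusted p = 0.066), although it did in DESeq2 (adjusted p = 0.0172). Atp5pb had 53.80, 54.38 and 53.81 FPKM in NC, against 54.44, 54.56 and 57.64 FPKM in WT. The groups were apart by a narrow margin, and the difference, -0.04 ± 0.04 (SE; -0.11 to 0.03), did not pass (edgeR adjusted p = 0.384). Its estimate was -0.01 without WT replicate 3. With each library scaled to the total of its 99 genes it was -0.08 and passed (edgeR adjusted p = 0.026). Under that scaling all 6 genes were called lower, while among the 62 genes tested 15 were called higher and 19 lower. The median log2 fold change of the genes tested was then -0.026, against 0.0149 in the main fit.

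Of the 6 genes, 4 were called, all lower in NC. Among all 62 genes tested, 51.6% were called in either direction and 24.2% were called lower. The median log2 fold change was -0.16 over the 6 genes and 0.01 over the 62. The NC and WT libraries were fully apart in FPKM for 5 of the 6 genes, beside 58.1% of all tested genes. Sdhd, Dlat and Tbrg4 ranked 6th, 7th and 8th from the lowest fold change of the 62. The genes were chosen with results of these data known, so these counts describe them and do not set them apart.

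**Figure D2:**
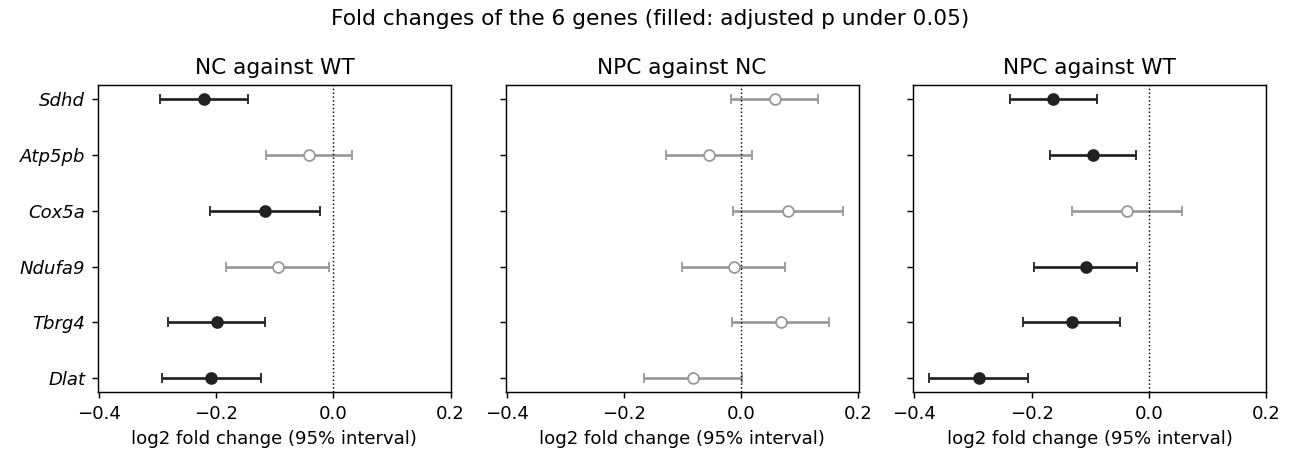
Log2 fold change (x axis) of each of the 6 genes (rows) with its 95% interval, in the 3 comparisons (NC against WT, NPC against NC, and also NPC against WT). Filled points passed an edgeR adjusted p of 0.05. Sdhd, Dlat and Tbrg4 are filled in both comparisons with WT and no gene is filled in NPC against NC.

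NPC was compared with NC, which asks, on the same reading, how expression differs with the Piezo1 knockout within the CMML setting. None of the 6 genes passed in the quasi-likelihood test of edgeR, where 9 of the 62 genes, or 14.5%, were called. That count was 3 without NC replicate 2 or NPC replicate 3, 4 without NPC replicate 2 and 15 without NPC replicate 1. Of the 6, none had an unadjusted edgeR p under 0.05, beside 16 of the 62 genes tested. The 9 calls were 4 higher and 5 lower in NPC, against 9 higher and 5 lower in DESeq2. DESeq2, which scaled libraries by median of ratios over the 62 genes and not by the implied depth, called Sdhd and Tbrg4. Both were higher in NPC, at log2 fold changes of 0.09 and 0.10, with a DESeq2 adjusted p of 0.0237 each. With median of ratios factors edgeR also gave 0.09 and 0.10, and neither passed (edgeR adjusted p = 0.0572 and 0.0506). In the main fit the estimates pointed in both directions. Cox5a (0.08 ± 0.05, SE; 95% interval -0.01 to 0.17), Tbrg4 (0.07 ± 0.04; -0.01 to 0.15) and Sdhd (0.06 ± 0.04; -0.02 to 0.13) had positive log2 fold changes. Dlat (-0.08 ± 0.04; -0.17 to 0.00), Atp5pb (-0.05 ± 0.04; -0.13 to 0.02) and Ndufa9 (-0.01 ± 0.04; -0.10 to 0.08) had negative ones.

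Dlat and Sdhd stood on opposite sides of NC. Dlat had 14.05, 13.23 and 13.55 FPKM in NPC, all under the lowest NC library at 14.12 FPKM (edgeR adjusted p = 0.206). Sdhd had 103, 98.5 and 104 FPKM in NPC, all above the NC libraries (edgeR adjusted p = 0.33). Atp5pb had 53.5, 49.8 and 52.6 FPKM in NPC, all below NC (edgeR adjusted p = 0.33). The groups overlapped for Cox5a, with 44.7, 46.7 and 50.0 FPKM in NPC, for Tbrg4, with 32.2, 30.0 and 33.6 FPKM, and for Ndufa9, with 34.8, 32.4 and 36.1 FPKM. Groups that did not overlap were thus seen for 3 of the 6 genes, against 27.4% of the genes tested. NPC replicate 2 held the lowest NPC value of each of the 6 genes except Cox5a, for which it was NPC replicate 1.

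NPC was also compared with WT, so that both CMML groups can be read against control. Dlat was 0.818 times and Sdhd 0.893 times the WT level, and Tbrg4, Ndufa9 and Atp5pb were at 0.913 to 0.936 times. Dlat had the largest difference of the 6, a log2 fold change of -0.29 ± 0.04 (SE; 95% interval -0.37 to -0.21; edgeR adjusted p = 1.86e-07), and ranked 6th from the lowest of the 62 genes. Sdhd followed at -0.16 ± 0.04 (-0.24 to -0.09; edgeR adjusted p = 0.000269). For both genes, and for Tbrg4 and Atp5pb, all NPC libraries lay below all WT libraries.

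The log2 fold change was -0.13 ± 0.04 for Tbrg4 (SE; edgeR adjusted p = 0.0055), -0.11 ± 0.04 for Ndufa9 (edgeR adjusted p = 0.03) and -0.10 ± 0.04 for Atp5pb (edgeR adjusted p = 0.021). Without NPC replicate 2 these 3 genes did not pass, at -0.09, -0.07 and -0.07 (edgeR adjusted p = 0.0583, 0.16 and 0.123), which left Sdhd and Dlat. Ndufa9 also did not pass without WT replicate 1 (-0.09) or WT replicate 2 (-0.10), nor Atp5pb without WT replicate 3 (-0.07). Cox5a did not pass, at -0.04 ± 0.05 (SE; -0.13 to 0.06; edgeR adjusted p = 0.492). In all, 5 of the 6 genes were called, all lower, where 64.5% of the 62 genes were called in either direction and 30.6% lower. The calls were 21 higher and 19 lower in NPC, against 18 higher and 26 lower when each library was scaled to the total of its 99 genes. The NPC and WT libraries were fully apart for 4 of the 6, beside 61.3% of all tested genes. The median log2 fold change was -0.12 over the 6 genes and -0.04 over the 62. This comparison shares its WT libraries with that of NC, so the falls seen in both are not separate observations.

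**Figure D3:**
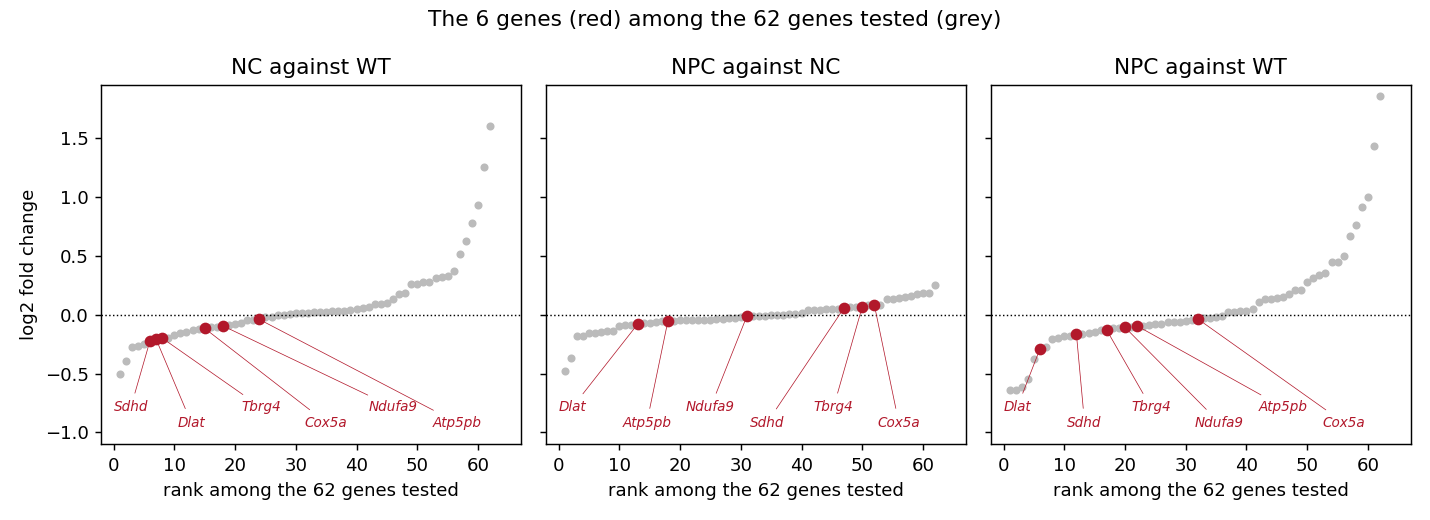
Log2 fold change (y axis) of the 62 genes tested, ordered from lowest to highest (x axis), in each comparison, with the 6 genes in red. In both comparisons with WT the 6 lie below 0, at ranks 6 to 24 for NC and 6 to 32 for NPC, while in NPC against NC they are spread from rank 13 to 52.

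Ratios of 2 genes within a library do not depend on how libraries are scaled. They were chosen after the levels were seen, 6 ratios in 3 comparisons. With 3 libraries against 3 the exact two-sided permutation test cannot go below 0.1. Adjusted over the 18 tests, an exact p of 0.1 became 0.2 in these data. Sdhd over Atp5pb, complex II against the ATP synthase, was 1.92, 1.98 and 1.97 in NPC, 1.83, 1.81 and 1.79 in NC and 2.06, 2.15 and 1.93 in WT. NC lay below both other groups, each at the smallest p of 0.1 (adjusted p = 0.2). Sdhd over Dlat was 7.31, 7.44 and 7.65 in NPC, 6.86, 6.65 and 6.81 in NC and 6.60, 7.14 and 6.76 in WT. Here NPC stood above NC and WT (exact p = 0.1 each, adjusted p = 0.2), whereas NC and WT overlapped (exact p = 0.9). Sdhd over Cox5a overlapped between all groups, with 2.07 to 2.30 in NPC, 2.12 to 2.35 in NC and 2.22 to 2.48 in WT.

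Dbt encodes the E2 subunit of the branched-chain keto acid dehydrogenase, a complex built like pyruvate dehydrogenase. It was set beside Dlat after its values were seen. Dbt averaged 4.62 ± 0.285 FPKM in NPC, 4.78 ± 0.137 in NC and 4.70 ± 0.197 in WT (SD, n = 3 each) and was called in no comparison (edgeR adjusted p from 0.737 to 0.855). Dlat over Dbt was 2.84, 3.01 and 2.98 in NPC, 3.05, 3.15 and 2.86 in NC and 3.78, 3.36 and 3.50 in WT. All NPC and NC values lay below all WT values, at the smallest exact p of 0.1 in each comparison with WT (adjusted p = 0.2). As Dbt differed little between groups, this ratio largely repeats the levels of Dlat.

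Hk2, which encodes hexokinase 2 at the entry of glycolysis, was the one gene of the glycolysis list in the table. Set over Dlat, its ratio was 0.990, 1.14 and 1.07 in NPC, 0.922, 0.853 and 0.901 in NC and 0.601, 0.620 and 0.627 in WT, with no overlap between any 2 groups (exact p = 0.1 in each comparison, adjusted p = 0.2). The log2 fold change of Hk2 was 0.33 ± 0.04 in NC against WT, 0.17 ± 0.04 in NPC against NC and 0.50 ± 0.04 in NPC against WT (SE; edgeR adjusted p = 3.09e-08, 0.00822 and 1.4e-12).

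**Figure D4:**
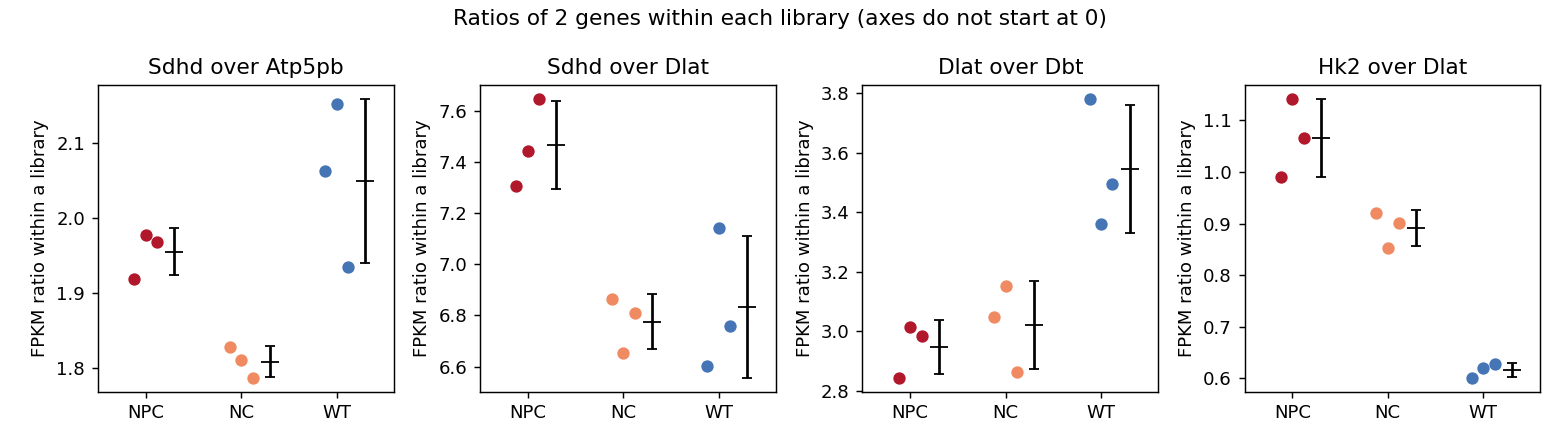
Ratio of the FPKM of 2 genes within each library (y axis, a separate range for each panel) in NPC, NC and WT (x axis). Points are libraries and the bar beside them is the mean ± SD (n = 3). NC is lowest for Sdhd over Atp5pb, NPC is highest for Sdhd over Dlat, WT is highest for Dlat over Dbt, and the 3 groups are apart for Hk2 over Dlat.

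How the reads of the overlap were divided between Atp5pb and Wdr77 was not tested. Wdr77 had 16.7, 16.3 and 16.8 FPKM in NPC, 17.4, 17.7 and 17.9 in NC and 17.2, 18.0 and 17.6 in WT. Its log2 fold changes were 0.00 ± 0.04 in NC against WT, -0.09 ± 0.04 in NPC against NC and -0.09 ± 0.04 in NPC against WT (SE), and it was called in none (edgeR adjusted p = 0.948, 0.115 and 0.0524). Atp5pb over Wdr77 overlapped between all groups, with means of 3.13 ± 0.0680 in NPC, 3.06 ± 0.0448 in NC and 3.16 ± 0.120 in WT (SD, n = 3 each). With the counts of both genes summed, an alternative chosen after seeing the data, the log2 fold change was -0.03 in NC against WT, -0.06 in NPC against NC and -0.09 in NPC against WT, and the last passed (edgeR adjusted p = 0.016).

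Pih1d2, which encodes a PIH1 domain protein, was the other gene of the table within 10 kb of one of the 6, 9632 bases from Dlat. It was below the expression minimum, at 0.234, 0.223 and 0.204 FPKM in NPC, 0.166, 0.309 and 0.324 in NC and 0.370, 0.394 and 0.540 in WT, with 43 to 125 counts per library. All NPC and NC libraries lay below the WT libraries. With no expression minimum its log2 fold change was -0.69 ± 0.26 in NC against WT and -0.94 ± 0.27 in NPC against WT (SE; edgeR adjusted p = 0.0263 and 0.00183), and it did not pass in NPC against NC (-0.25 ± 0.28; edgeR adjusted p = 0.768).

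The profiles of the 6 genes were also set beside those of the 56 other tested genes, by the root mean square difference of log2(FPKM + 1), centred on each gene's mean, over the 9 libraries. Sdhd and Tbrg4 had the smallest difference of any pair of the 6, at 0.037, and Cox5a and Dlat the greatest, at 0.126. Dlat was most like Itga5, a fibronectin receptor gene (0.044), Scml2 (0.045) and Myo18a (0.046), against a median of 0.126 over the 56 genes. Scml2 was near 1 FPKM, where the added 1 shrinks differences, and its fitted log2 fold change in NPC against WT was -0.64, beside -0.29 for Dlat. Sdhd was most like Hnrnpd (0.044), an RNA-binding protein gene, Myo18a (0.051) and Gmpr (0.054). Tbrg4 had the same 3 nearest genes as Sdhd, at 0.052 for Gmpr, 0.055 for Hnrnpd and 0.062 for Myo18a. Ndufa9 lay nearest to Gna12 (0.033), Hnrnpd (0.034) and Ccm2 (0.036), and Atp5pb to Gna12 (0.030), Wdr77 (0.036) and Scmh1 (0.037). Cox5a lay nearest to Gmpr (0.052), Hnrnpd (0.062) and Zfp385a (0.075). Genes whose values vary little lie near each other by this measure, which all 9 libraries share.

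Of 9 gene lists for mitochondrial and glucose metabolism, 8 had a gene in the table, 1 each, and 6 of these were the genes described above. The list for complex III had none, and that of mitochondrial regulators had Pparg, a nuclear receptor gene below the expression minimum, at 0.363 ± 0.071 FPKM in NPC, 0.446 ± 0.120 in NC and 0.595 ± 0.062 in WT (SD, n = 3 each). With no expression minimum the log2 fold change of Pparg was -0.70 ± 0.22 in NPC against WT (SE; edgeR adjusted p = 0.00369). It did not pass in NC against WT (-0.41 ± 0.21; edgeR adjusted p = 0.116) or NPC against NC (-0.29 ± 0.22; edgeR adjusted p = 0.496). Among further genes that the table's own annotation places in the mitochondrion, taken up after the table was seen, Gm2a, best known as a lysosomal activator protein gene, rose in all 3 comparisons. Its log2 fold change was 0.63 ± 0.04 in NC against WT, 0.13 ± 0.04 in NPC against NC and 0.76 ± 0.04 in NPC against WT (SE; edgeR adjusted p = 8.85e-17, 0.0126 and 2.59e-19). Dbt, Hddc2, Pemt and Ccm2 were called in none.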

How the data were processed

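Poly(A) RNA of c-Kit+ bone marrow cells was made into strand-marked, paired-end libraries, per the labels' protocols. The submitters' processing notes name cutadapt 1.9, HISAT2 2.2.1, StringTie 2.1.6, DESeq2, edgeR and the build GRCm39, without roles. The authors deposited FPKM per gene and library, that is fragments divided by transcript length and mapped total. They also deposited estimated counts, not normalized, in which the value 4 occurs 14 times and the value 1 occurs 0 times among 891. About 4 counts are therefore taken as 1 fragment. No annotation release or filter is given in the sources used here.

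The table analysed here held 99 genes, so library size was the depth implied by count over FPKM, over 61 genes that never fell under 200 counts (100% of values within 1% of the fitted ratio). Its scale came from 6 single-transcript genes with lengths from a GRCm38 annotation. The 62 genes that reached 1 FPKM in 3 or more libraries were tested with edgeR 4.0.16 (R 4.3.3), a quasi-likelihood fit of all 9 libraries to the estimated counts, already whole numbers, with group means and no block. P-values are two-sided and Benjamini-Hochberg adjusted over the 62 genes, with a threshold of 0.05. Each standard error was obtained from the F statistic of its fold change. The fit was tested on simulated data. The genes and lists were chosen with earlier results of these data known. Named genes are the 6 members, table genes within 10 kb of them, listed genes, and the 3 most alike genes each. Dbt and the other genes annotated to the mitochondrion were named after their values were seen. A result on another gene of that annotation is not reported here. Alternatives covered scaling, DESeq2 1.42.0, limma 3.58.1 on log2(FPKM + 1) or log2(FPKM + 0.1), filters, count scale, the replicate number as a block and left-out libraries. DESeq2 scaled libraries by its own median of ratios over the 62 genes, not by the implied depth. NC replicates 2 and 3 had a chi-square per degree of freedom of 4.69 as deposited, which several counts per fragment would inflate. At 4 counts per fragment it was 1.17 (chi-square p = 0.169), so no difference beyond counting noise was shown. The 2 libraries were kept apart in the main fit because that scale is inferred. Figures were drawn with matplotlib 3.10.9 in Python 3.11.15.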

Additional observations from a re-analysis of the deposited data

How the results depend on the processing

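Of the 9 calls on the 6 genes, 5 were kept in each of the 21 alternatives run for them: Sdhd and Dlat in both comparisons with WT, and Tbrg4 in NC against WT. The other 4 calls each failed under some alternative, and of the 9 values not called, 4 passed under some alternative, Ndufa9 in NC against WT under 6 of them. No called value changed sign. The cause of these changes was not tested. Cox5a in NC against WT had adjusted p from 0.00211 to 0.198 over its alternatives, with log2 fold changes of -0.17 to -0.07, and was also lost with TMM factors, limma at either pseudocount, a mean FPKM of at least 5 and NC replicates 2 and 3 averaged. In NPC against WT, Ndufa9 was also lost with median of ratios factors, DESeq2 and limma at a pseudocount of 0.1, and Atp5pb with limma at either pseudocount. In that comparison 3 of the 6 genes changed with the pseudocount of 0.1, beside 36 of the 62 genes tested. Leaving out a library gave 2 to 5 of the 6, beside 35 to 45 of the 62. In NPC against NC, DESeq2 called 14 genes, 2 of them among the 6, and averaging NC replicates 2 and 3 gave 4 genes. Leaving out a library gave 3 to 15 genes there. The estimate of Ndufa9 in NPC against NC changed sign, to 0.0198 with median of ratios factors and 0.0199 with DESeq2, and ran from -0.0472 to 0.0295 when a library was left out (0.0052 without NC replicate 2, 0.0295 without NPC replicate 2). That of Cox5a in NPC against WT ran from -0.0862 to 4.99e-06, the last without NPC replicate 1. Deviations from the group means correlated at -0.3 to 0.29 for same-numbered libraries and at -0.236 to 0.37 for differently numbered ones. The labels do not say what the numbers mean. Whether they pair libraries cannot be told from so few. With the replicate block 31 genes changed in NC against WT (4 of the 6), 9 in NPC against NC (0 of the 6) and 40 in NPC against WT (5 of the 6), and no call on the 6 differed. With 3 libraries a group and errors near 0.04 on the log2 scale, differences near 0.1 lay at the threshold.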
